A study of Bos taurus with 4 samples.

Results

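HOX genes encode homeodomain transcription factors that give cells their position along the body axis. They lie in 4 clusters, HOXA to HOXD, in which the paralogue number, counted from the 3' end of the cluster, follows the order of the anterior limit of expression along the body. As background, retinoic acid bound to its nuclear receptors, heterodimers of RAR and RXR, is a known activator of HOX genes, and those of low paralogue number near the 3' end are the classical responders in embryonic and teratocarcinoma cells. Fibroblasts, muscle cells and fat precursors of the adult keep a HOX pattern that reflects the body site they came from.

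The HOX cluster genes were taken as every array probe that is not a control spot and whose gene name in the array files is HOX followed by a cluster letter and a number. This gave 46 probes of 28 genes, out of 43653 probes on the array. HOXA had 12 probes of 8 genes on chromosome 4, HOXB had 11 probes of 7 genes on chromosome 19, HOXC had 13 probes of 7 genes on chromosome 5 and HOXD had 10 probes of 6 genes on chromosome 2 (UMD3.1). Of the 28 genes, 14 had 1 probe, 11 had 2, 2 had 3 and 1 (HOXC11) had 4. RefSeq (ARS-UCD2.0, used for names only) lists 39 genes in the 4 clusters. The others are named by no probe of the array.

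The cells were BIP, bovine intramuscular preadipocytes, a line of fat precursor cells from muscle that is known as a clonal line. The ATRA group was harvested at culture day 6 after treatment with 1 µM all-trans retinoic acid and the 9cRA group at day 6 after 1 µM 9-cis retinoic acid. The D6 control was harvested at day 6 without retinoid and D0 at day 0 of the adipogenic stimulation. All cells cultured to day 6, controls included, received an adipogenic medium with insulin (50 ng/mL), dexamethasone (0.25 µM), acetic acid (10 mM), octanoate (5 mM) and serum (10%), renewed every 2 days. As background, ATRA binds RAR, and 9cRA binds both RAR and RXR.

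Each group is 1 sample with 3 array files, and nothing in the labels says that these came from separate cultures. The p-values therefore cover only how far arrays of a group lie apart, and this may be technical spread. The share of probes well above background was 64.8% on D6 control array 1, which also had 103 non-uniform spots, and lay between 68.7% and 74.0% on the other arrays. The 12 arrays lay on 3 slides. ATRA and the D6 control shared 1 slide (2 arrays each), the D6 control and D0 shared 1 (1 and 3 arrays), ATRA and 9cRA shared 1 (1 and 3 arrays), and 9cRA shared none with the D6 control. All 11 markers of stromal precursor cells, among them PDGFRA and COL1A1, were well above background on every array, and so were 3 of 5 leukocyte markers (PTPRC, CD14 and CD68). ADIPOQ, which marks mature fat cells, was above background on no array, and neither were the myogenic factors MYF5 and MYF6. Other markers of these types were detected. In each group 4 of 7 skeletal myoblast markers and 5 or 6 of 8 adipocyte markers were well above background on all its arrays.

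Every level below is the log2 processed signal of a probe minus the 75th percentile of its array, so that 0 is the signal of a probe at that percentile. A difference is a difference of such levels in log2 units, where 1 equals 2-fold, given with its standard error (SE) from limma. Levels of different probes are not compared, since probes bind with different strength. A probe was tested where some group had it well above background on each of its 3 arrays, which left 35 of the 46 HOX probes (23 genes). Of these, 27 (19 genes) were well above background on all 12 arrays. The other 8 tested probes passed through some groups only, so a higher level in those groups is in part built into their selection. Another 3 probes, those of HOXA13, HOXC12 and HOXD11, were above background on no array.

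The sequences of 2 sets of probes bear on how the HOX values can be read. The first set holds the homeobox, the stretch that encodes the DNA-binding homeodomain and is the part most alike between HOX genes. Capitals mark runs of at least 20 bases that a probe shares with another probe of this set. The HOXB4 probe A_73_P109806 (chr19:38562555-38562614, minus strand) shares 27 bases with the second HOXB4 probe, A_73_P065611 (chr19:38562522-38562581, minus strand), which overlaps it. It also shares 20 bases with the HOXD4 probe A_73_P403596 (chr2:20795231-20795290, minus strand) and 20 with the HOXD12 probe A_73_119442 (chr2:20848062-20848121, minus strand). Positions are those of the array files (UMD3.1), and the strand is read from the order in which the files list start and end.
HOXB4 A_73_P109806: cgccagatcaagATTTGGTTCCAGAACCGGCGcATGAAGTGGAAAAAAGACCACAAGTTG
HOXB4 A_73_P065611: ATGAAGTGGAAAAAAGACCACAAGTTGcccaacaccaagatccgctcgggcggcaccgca
HOXD4 A_73_P403596: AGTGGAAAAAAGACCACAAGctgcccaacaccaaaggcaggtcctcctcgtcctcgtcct
HOXD12 A_73_119442: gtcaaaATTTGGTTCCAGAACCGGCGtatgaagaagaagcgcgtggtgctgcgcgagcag

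Over all 1012 pairs of HOX probes of different genes, 3 pairs shared a run of 20 bases or more, and all 3 are in this set. The median longest run was 6 bases. A probe of EVX2, a homeobox gene beside the HOXD cluster, shared at least 20 bases with the HOXB4 probe A_73_P109806 as well. Cross-hybridisation between these genes was not tested. The HOXB4 result below does not rest on this probe alone, since the HOXB4 probe A_73_114875 shared no run of 12 bases or more with any HOX probe of another gene.

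The second set is shown because its 2 HOXB2 probes gave different answers. HOXB2 probe A_73_P125736 lies at chr19:38585176-38585235 and HOXB2 probe A_73_P065616 at chr19:38583479-38583538, both on the plus strand and 1697 bases apart from start to start. Capitals mark 13 bases that A_73_P065616 shares with the HOXA2 probe A_73_P379841 (chr4:69394509-69394568, plus strand), the longest run it shares with another HOX gene. The HOXA2 probe was well above background on 1 of 12 arrays and was not tested.
HOXB2 A_73_P125736: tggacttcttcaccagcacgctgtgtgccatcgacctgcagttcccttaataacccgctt
HOXB2 A_73_P065616: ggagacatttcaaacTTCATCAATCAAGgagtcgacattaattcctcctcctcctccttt
HOXA2 A_73_P379841: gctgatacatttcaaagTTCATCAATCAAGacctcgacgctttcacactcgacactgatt

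With ATRA, 25 of the 35 HOX probes tested were higher than in the D6 control and 1 was lower (limma, adjusted p under 0.05 over all probes tested). The 25 probes belong to 20 of 23 genes. Over all 31205 probes tested, 21.9% were called higher and 21.5% lower. The median difference of the HOX probes was 0.58, against 0.039 for all probes. With 9cRA, 23 HOX probes of 17 genes were higher and 1 was lower than in the D6 control, where 22.7% of all probes were called higher and 20.8% lower. Here the HOX median was 0.53 and that of all probes 0.046. Both comparisons use the same 3 D6 control arrays. In such bulk RNA, fewer cells of a type and less RNA per cell cannot be told apart. Among the 27 probes well above background on all arrays, 22 were higher with ATRA and 20 with 9cRA, where 21.4% and 21.9% of all such probes were called higher.

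At least 2-fold, 9 HOX probes were higher with ATRA and 6 with 9cRA, and 0 were lower with either. Among the 27 probes well above background on all arrays these counts were 7 with ATRA and 5 with 9cRA. HOXC4 probe A_73_P297276 and HOXD12, both counted in the 9, entered the test through the retinoid groups only. Of all probes, 4.04% were called at least 2-fold higher and 3.55% at least 2-fold lower with ATRA, and 4.15% and 3.47% with 9cRA. HOXA2, both tested HOXA3 probes, HOXB2 probe A_73_P125736, HOXB3 and HOXC4 probe A_73_P297276 passed 2-fold with both retinoids. HOXA5, HOXB4 probe A_73_P065611 and HOXD12 did so with ATRA. Within the slide that held both groups, 21 HOX probes were called higher with ATRA and 0 lower, and the calls of HOXB9, HOXC5, HOXC13 probe A_73_P042926, HOXD4 probe A_73_P403596 and HOXD12 were lost. For 9cRA, which shares no slide with the D6 control, a fit with slide as a block rests on the other groups and called 13 HOX probes higher and 0 lower. That fit lost the calls of HOXA3 probe A_73_P405181, HOXA4, HOXA9 probe A_73_101190, HOXB7 probe A_73_119630, HOXB9, both HOXC4 probes, both HOXC6 probes, HOXC8, HOXC11 probe A_73_P169767 and HOXD4 probe A_73_P035246.

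The largest differences were those of HOXB2 probe A_73_P125736 and of HOXB3, genes that pattern the hindbrain in the vertebrate embryo. The other HOXB2 probe, A_73_P065616, was not called with either retinoid (0.24 ± 0.18 with ATRA and 0.33 ± 0.18 with 9cRA). HOXB2 probe A_73_P125736 read -0.37, -0.46 and -0.32 on the ATRA arrays, -0.50, -0.31 and -0.33 on the 9cRA arrays, -2.48, -2.73 and -2.51 on the D6 control arrays and -1.44, -1.38 and -1.55 on the D0 arrays. The 6 retinoid arrays all lay above the 3 D0 arrays, and these above the 3 D6 control arrays. The difference from the D6 control was 2.19 ± 0.084 (SE, n = 3 each) with ATRA, 4.55-fold, and 2.19 ± 0.084 with 9cRA, 4.56-fold (adjusted p = 1.7e-08 and 1.8e-08).

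HOXB3 (A_73_100690, chr19:38574302-38574361) read -0.52, -0.40 and -0.27 on the ATRA arrays, -0.43, -0.58 and -0.84 on the 9cRA arrays, -2.29, -2.33 and -2.14 on the D6 control arrays and -2.24, -2.21 and -2.25 on the D0 arrays. The retinoid arrays lay above all D6 control and D0 arrays, and these last groups overlapped. The difference from the D6 control was 1.86 ± 0.10 with ATRA, 3.63-fold (adjusted p = 2.2e-07), and 1.64 ± 0.10 with 9cRA, 3.12-fold (adjusted p = 6.1e-07).

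**Figure D1:**
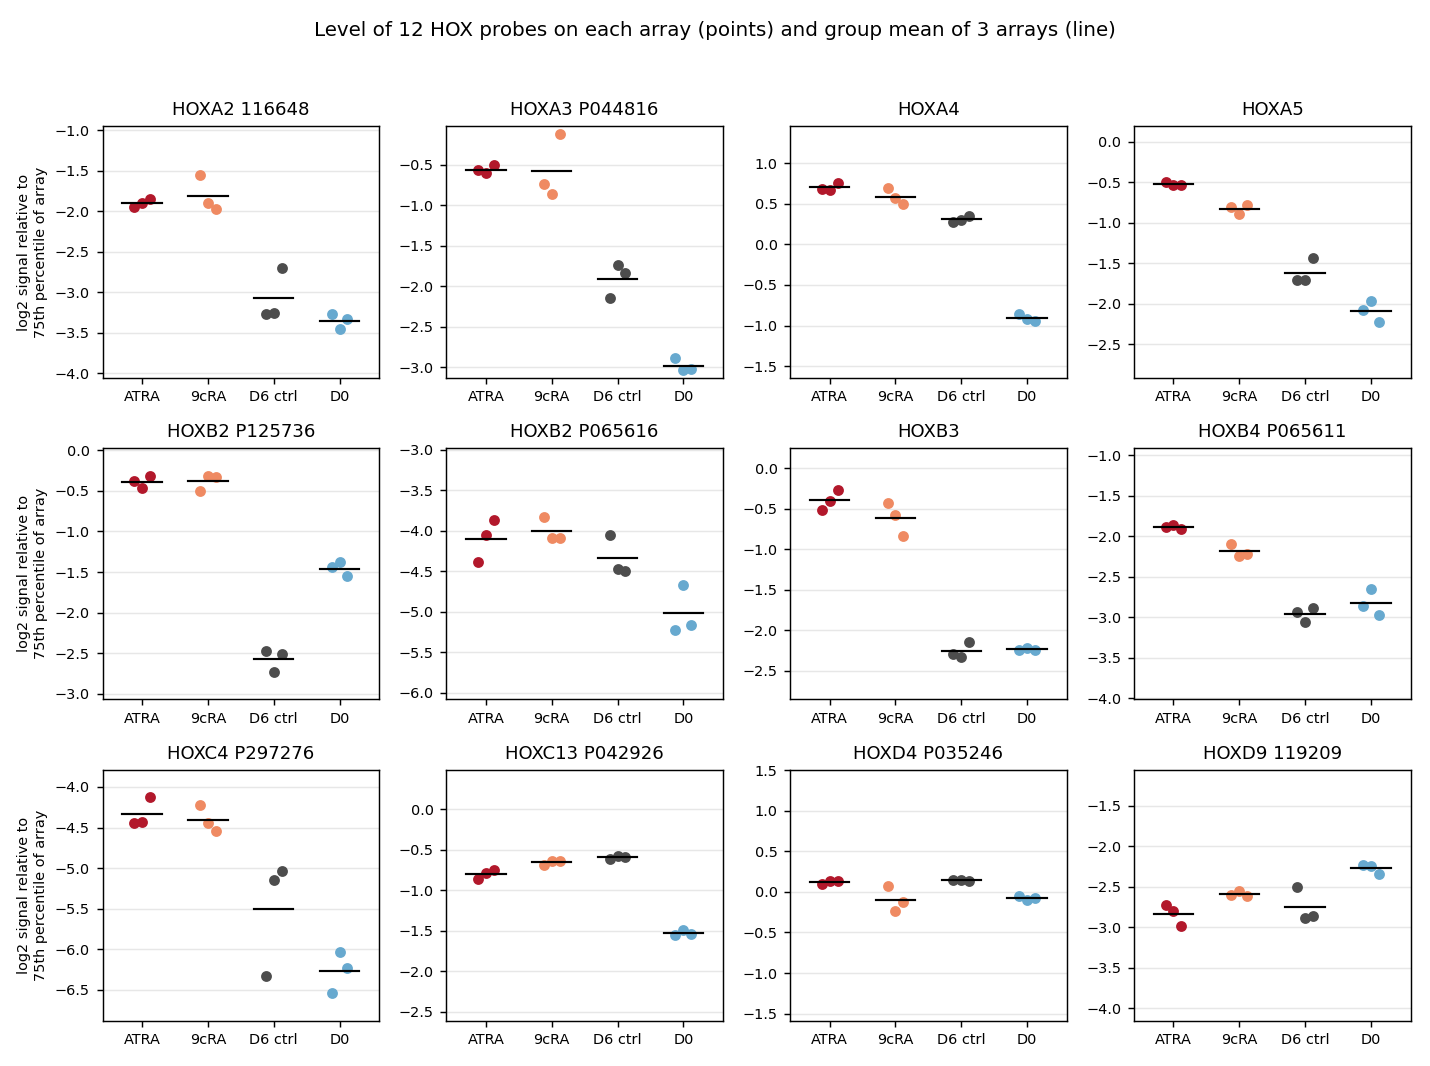
Level of 12 HOX probes on each array, as log2 signal relative to the 75th percentile of the array, with a point per array and a line at the mean of the 3 arrays of a group; every panel spans the same range of log2 units. The retinoid arrays of HOXB2 A_73_P125736 and HOXB3 lie between -0.84 and -0.27, above all their D6 control arrays, while those of HOXC13 and HOXD4 A_73_P035246 lie close to the D6 control arrays.

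The other HOXB genes tested were higher by smaller amounts. HOXB4, a gene known for its part in the expansion of blood stem cells, was called higher by all 3 of its probes with both retinoids. Probe A_73_P065611 read -1.88, -1.86 and -1.92 on the ATRA arrays, -2.09, -2.25 and -2.22 on the 9cRA arrays, -2.93, -3.06 and -2.88 on the D6 control arrays and -2.86, -2.65 and -2.97 on the D0 arrays. Its ATRA arrays lay above its 9cRA arrays, and both above the other 2 groups, which overlapped. Its difference from the D6 control was 1.07 ± 0.084 with ATRA (adjusted p = 3e-06) and 0.77 ± 0.084 with 9cRA (adjusted p = 3.7e-05). The other HOXB4 probes differed by 0.95 ± 0.088 (A_73_114875) and 0.79 ± 0.058 (A_73_P109806) with ATRA, and by 0.93 ± 0.088 and 0.59 ± 0.058 with 9cRA. HOXB8, HOXB7 probe A_73_119630 and HOXB9 differed by 0.93, 0.58 and 0.46 with ATRA and by 0.88, 0.71 and 0.50 with 9cRA, each called. The HOXB9 call with ATRA was lost without D6 control array 2 or 3 or without ATRA array 1 or 3 (adjusted p of up to 0.12), and that with 9cRA without D6 control array 3 or 9cRA array 3 (adjusted p of up to 0.083).

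In the HOXA cluster all 9 tested probes of 7 genes were called higher with ATRA and with 9cRA. HOXA2, which patterns the second branchial arch, read -1.95, -1.90 and -1.85 on the ATRA arrays, -1.56, -1.90 and -1.98 on the 9cRA arrays, -3.27, -3.25 and -2.70 on the D6 control arrays and -3.27, -3.45 and -3.33 on the D0 arrays for probe A_73_116648. The retinoid arrays lay above all D6 control arrays, by 1.17 ± 0.15 with ATRA, 2.25-fold (adjusted p = 0.00013), and 1.26 ± 0.15 with 9cRA, 2.4-fold (adjusted p = 7.8e-05). HOXA3, needed for the thymus and parathyroid in mice, had 2 tested probes that gave like answers. Probe A_73_P044816 read -0.57, -0.61 and -0.51 on the ATRA arrays, -0.74, -0.86 and -0.12 on the 9cRA arrays, -2.14, -1.74 and -1.84 on the D6 control arrays and -2.89, -3.03 and -3.02 on the D0 arrays. Its levels stood in the order retinoid groups, D6 control, D0 with no overlap, apart from ATRA and 9cRA, which overlapped. With ATRA the HOXA3 probes were higher by 1.34 ± 0.17 (A_73_P044816) and 1.19 ± 0.18 (A_73_P405181), and with 9cRA by 1.33 ± 0.17 and 1.10 ± 0.18. The second of these read -3.03, -2.99 and -3.02 on the ATRA arrays, -3.07, -3.23 and -3.01 on the 9cRA arrays, -4.53, -4.09 and -4.01 on the D6 control arrays and -4.95, -5.60 and -5.65 on the D0 arrays, in the same order of groups. With slide as a block its 9cRA difference was 0.96 (limma, adjusted p = 0.071).

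HOXA5, needed for lung development in mice, read -0.49, -0.54 and -0.54 on the ATRA arrays, -0.81, -0.89 and -0.78 on the 9cRA arrays, -1.71, -1.71 and -1.44 on the D6 control arrays and -2.07, -1.97 and -2.23 on the D0 arrays. The ATRA arrays lay above the 9cRA arrays, these above the D6 control and these above D0. Against the D6 control it was 2.14-fold higher with ATRA (difference 1.10 ± 0.087, adjusted p = 3.1e-06) and 1.73-fold higher with 9cRA (difference 0.79 ± 0.087, adjusted p = 3.8e-05). HOXA4 read 0.68, 0.67 and 0.76 on the ATRA arrays, 0.69, 0.57 and 0.50 on the 9cRA arrays, 0.28, 0.30 and 0.36 on the D6 control arrays and -0.86, -0.92 and -0.95 on the D0 arrays. The retinoid arrays exceeded the D6 control arrays by 0.40 (ATRA) and 0.28 (9cRA), both called. HOXA7, HOXA9 and HOXA10 differed by between 0.31 and 0.67 with ATRA and between 0.26 and 0.53 with 9cRA. HOXA9 and HOXA10 are genes of the posterior part of the cluster that also act in blood cell progenitors. The 9cRA call of HOXA9 probe A_73_101190 was lost without any 1 of 8 arrays (all 3 D0 arrays, D6 control arrays 1 and 2, ATRA array 2 and 9cRA arrays 1 and 2), with adjusted p between 0.055 and 0.14. The call of HOXA9 probe A_73_119831 was kept in every such fit.

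In the HOXC cluster 6 of 10 tested probes were called higher with each retinoid. HOXC4 probe A_73_P297276 read -4.44, -4.43 and -4.13 on the ATRA arrays, -4.23, -4.44 and -4.55 on the 9cRA arrays, -6.34, -5.15 and -5.03 on the D6 control arrays and -6.54, -6.04 and -6.23 on the D0 arrays. It was well above background on no D0 array and on 2 of 3 D6 control arrays, and D6 control array 1, which shares its slide with D0, lay among the D0 arrays. Every ATRA and 9cRA array had it well above background, so it entered the test through the retinoid groups. A higher level in these groups is therefore in part built into its selection. The difference from the D6 control was 1.17 ± 0.29 with ATRA (adjusted p = 0.0083) and 1.10 ± 0.29 with 9cRA (adjusted p = 0.012). Within the shared slide the ATRA difference was 0.66, and with slide as a block the 9cRA difference was 0.38 and not called. The other HOXC4 probe, A_73_110099, differed by 0.69 ± 0.28 with ATRA (adjusted p = 0.066) and 0.84 ± 0.28 with 9cRA (adjusted p = 0.031). The last of these was turned to -0.031 with slide as a block, and its call was lost without 9cRA array 1 or 2 (adjusted p of up to 0.082).

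HOXC8, expressed in the trunk mesoderm of the embryo, differed from the D6 control by 0.84 ± 0.19 with ATRA and 0.95 ± 0.19 with 9cRA, both called. HOXC6 was called with both probes and both retinoids, with differences between 0.31 and 0.59, and the 9cRA call of probe A_73_P090096 was lost without D6 control array 2 or 9cRA array 2 or 3 (adjusted p of up to 0.078). HOXC5 was called with ATRA (0.71 ± 0.17, adjusted p = 0.0075) and not with 9cRA (0.36 ± 0.17, adjusted p = 0.12), while the difference between the 2 retinoids was itself not called (0.35 ± 0.17, adjusted p = 0.55).

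HOXC13, known for its part in hair and nails, did not share the increase. Probe A_73_P042926 read -0.86, -0.79 and -0.75 on the ATRA arrays, -0.69, -0.64 and -0.65 on the 9cRA arrays, -0.61, -0.58 and -0.59 on the D6 control arrays and -1.55, -1.49 and -1.54 on the D0 arrays. It was the 1 HOX probe called lower with ATRA, by a small amount (-0.21 ± 0.047, adjusted p = 0.0048; -0.24 with adjusted p = 0.073 within the shared slide), and its 9cRA difference of -0.065 ± 0.047 was not called. The second HOXC13 probe differed by -0.059 ± 0.11 with ATRA and -0.12 ± 0.11 with 9cRA, with 95% intervals from -0.31 to 0.19 and from -0.37 to 0.13.

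In the HOXD cluster 2 of 6 tested probes were called higher with ATRA and 0 with 9cRA, where 21.9% and 22.7% of all probes were called higher. HOXD12, called higher with ATRA, entered the test through the retinoid groups only. Of the 6 tested HOXD probes, 3 were well above background on all arrays, so dim signal limits these counts. HOXD4 takes part in patterning neck vertebrae in mice. Its probe A_73_P035246 read 0.096, 0.14 and 0.14 on the ATRA arrays, 0.078, -0.23 and -0.13 on the 9cRA arrays, 0.14, 0.15 and 0.13 on the D6 control arrays and -0.047, -0.097 and -0.080 on the D0 arrays. Its ATRA and D6 control arrays overlapped (difference -0.020 ± 0.070, adjusted p = 0.84), and its 9cRA arrays were called lower (-0.24 ± 0.070, adjusted p = 0.02). The other HOXD4 probe, A_73_P403596, one of the homeobox set printed above, differed by 0.43 ± 0.15 with ATRA (adjusted p = 0.036) and 0.39 ± 0.15 with 9cRA (adjusted p = 0.054). The ATRA call of this probe was lost without D6 control array 1 or 2 or ATRA array 2 or 3 (adjusted p of up to 0.13), and the 9cRA call of A_73_P035246 without 9cRA array 2 or 3 (adjusted p of up to 0.079).

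HOXD9 and HOXD12 are known for patterning the limb. HOXD9 read -2.72, -2.80 and -2.98 on the ATRA arrays, -2.60, -2.55 and -2.62 on the 9cRA arrays, -2.50, -2.89 and -2.86 on the D6 control arrays and -2.23, -2.25 and -2.34 on the D0 arrays for probe A_73_119209. It was not called with either retinoid, at -0.085 ± 0.10 (ATRA) and 0.16 ± 0.10 (9cRA), and the second HOXD9 probe was not called either. HOXD12, of the homeobox set, read -4.99, -5.17 and -5.19 on the ATRA arrays, -5.31, -5.24 and -5.54 on the 9cRA arrays, -7.34, -7.19 and -5.88 on the D6 control arrays and -5.84, -8.40 and -8.34 on the D0 arrays. It exceeded background well on all 6 retinoid arrays, on 1 of 3 D6 control arrays and on 1 of 3 D0 arrays, so that it entered the test through the retinoid groups. Its difference was 1.69 ± 0.61 with ATRA (adjusted p = 0.046) and 1.44 ± 0.61 with 9cRA (adjusted p = 0.08), and the ATRA call was lost without D6 control array 1 or 2 and without any 1 of the 6 retinoid arrays (adjusted p between 0.06 and 0.14).

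**Figure D2:**
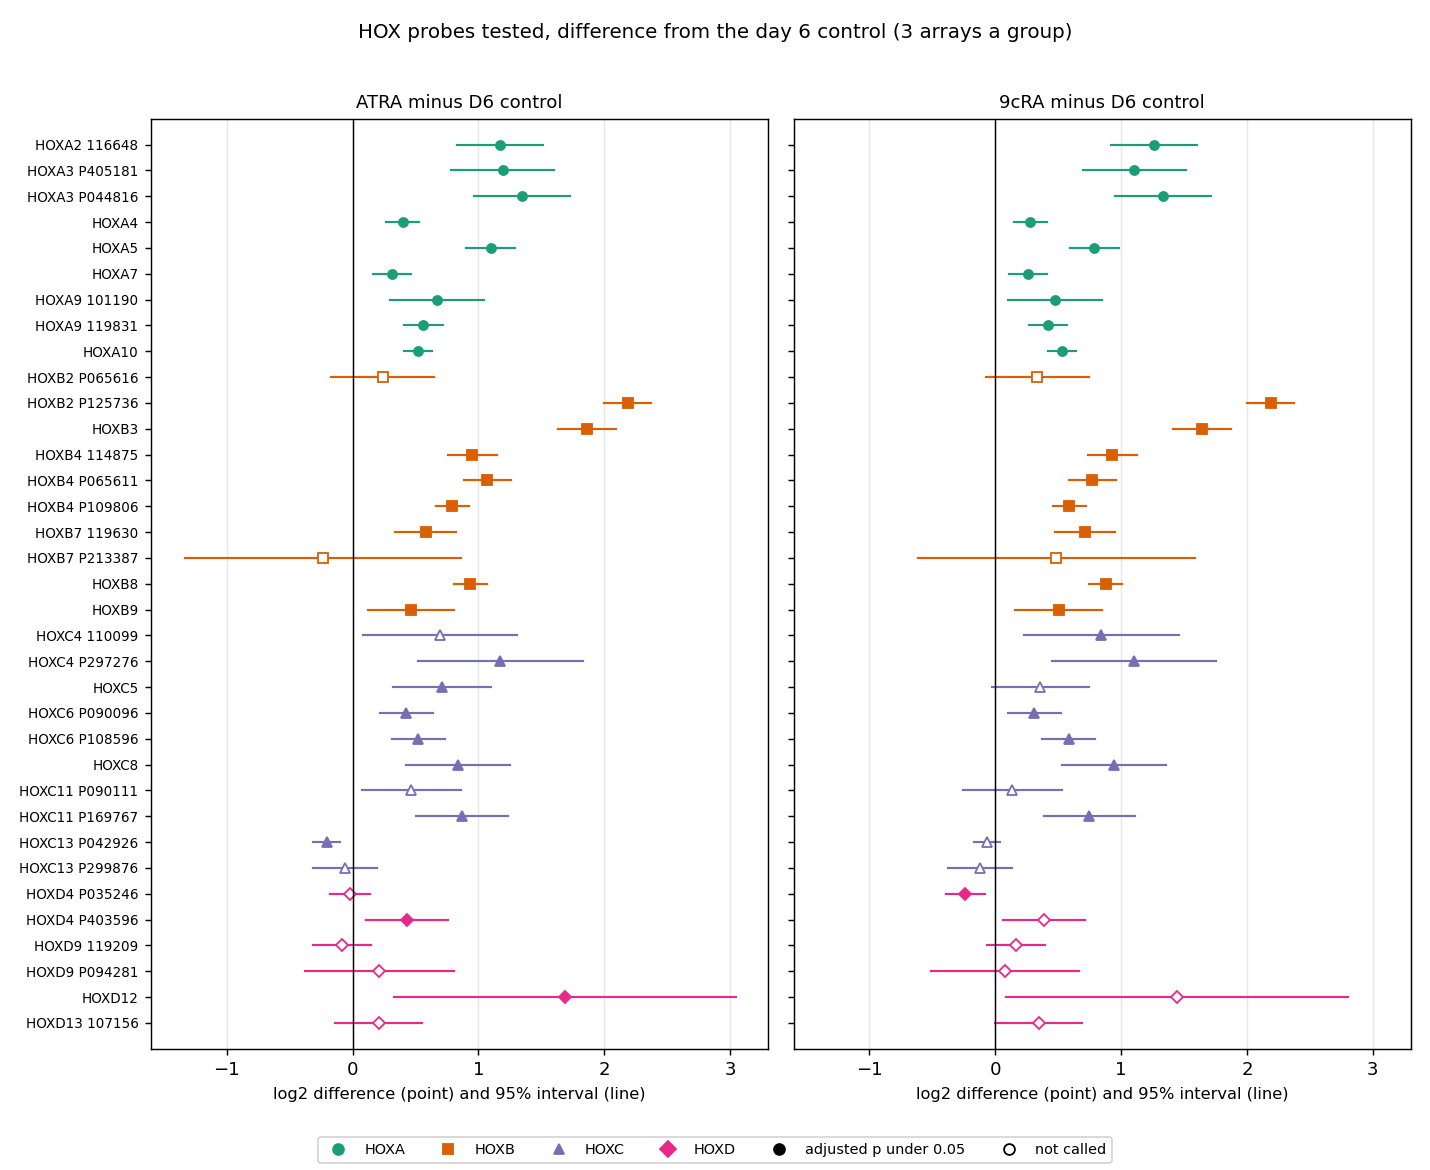
Difference of each of the 35 tested HOX probes from the D6 control with ATRA (left) and 9cRA (right), in log2 units, with its 95% interval; filled points have an adjusted p under 0.05. All 9 HOXA probes lie to the right of 0 with both retinoids, from 0.31 to 1.34 with ATRA and from 0.26 to 1.33 with 9cRA. The probes of HOXC13 and HOXD9 and HOXD4 probe A_73_P035246 lie nearer 0.

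With the clusters pooled, the size of the difference was larger at low paralogue numbers. With ATRA the median difference from the D6 control was 1.27 for paralogues 1 to 3 (6 tested probes), 0.69 for paralogues 4 to 8 (17 probes) and 0.47 for paralogues 9 to 13 (12 probes). With 9cRA these medians were 1.30, 0.59 and 0.38. As a description, Spearman's rho between paralogue number and difference was -0.47 with ATRA and -0.46 with 9cRA over the 35 probes, which share arrays and in part genes. Over the 27 probes well above background on all arrays rho was -0.55 with ATRA and -0.50 with 9cRA. The tested probes of paralogues 1 to 3 were all HOXA or HOXB. By cluster, A to D, the medians were 0.67, 0.86, 0.61 and 0.21 with ATRA and 0.53, 0.74, 0.47 and 0.25 with 9cRA. Paralogue number and cluster are therefore not separated in the pooled values. The order by paralogue number was not strict. HOXA4 and HOXA7 had smaller differences than HOXA9 and HOXA10, HOXB8 exceeded HOXB7, and the HOXB2 probe A_73_P065616 was not called with either retinoid (0.24 ± 0.18 with ATRA and 0.33 ± 0.18 with 9cRA). By array name, the only tested probes of paralogues 10 and 12 were those of HOXA10 and HOXD12. No probe of paralogue 1 could be tested, since HOXB1, the only such gene on the array, was above background on 1 of 3 ATRA, 1 of 3 9cRA, 2 of 3 D6 control and 1 of 3 D0 arrays.

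**Figure D3:**
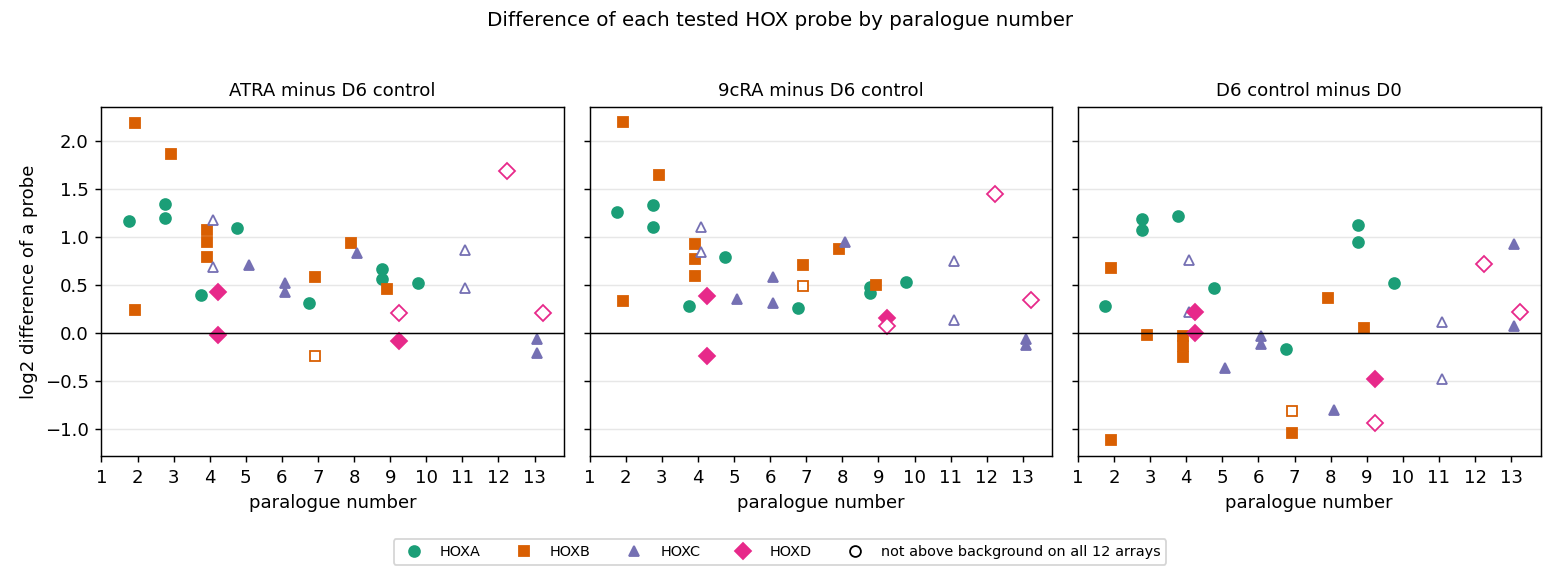
Difference of each tested HOX probe in log2 units against its paralogue number, for ATRA minus D6 control, 9cRA minus D6 control and D6 control minus D0; colour and shape give the cluster, and open symbols are probes that were dim on some of the 12 arrays. With ATRA and with 9cRA the points of paralogues 2 and 3 reach the highest values among filled symbols, up to 2.19, while the culture comparison on the right shows no such slope (rho -0.032 over 35 probes).

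ATRA and 9cRA were compared directly at the same dose and day. As background, the molecules differ in the geometry of a double bond, trans in ATRA and cis in 9cRA. Of the 35 HOX probes, 0 were called different (limma), 6 had an unadjusted p under 0.05 and the smallest adjusted p was 0.27. Over all probes tested, 0.151% were called. The differences lay between -0.72 and 0.35, and the 95% interval lay within 1 log2 unit of 0 for 33 of the 35 probes and within 0.5 for 25. The 2 probes with wider intervals were HOXB7 probe A_73_P213387 (from -1.82 to 0.38) and HOXD12 (from -1.11 to 1.60). For HOXB2 probe A_73_P125736 the difference was -0.0050 ± 0.084, with an interval from -0.19 to 0.18. HOXA5 and the HOXB4 probe A_73_P065611 had all 3 ATRA arrays above all 3 9cRA arrays, by 0.31 ± 0.087 and 0.30 ± 0.084, and neither was called (adjusted p = 0.27 for both). An adjusted p above the threshold does not show that both retinoids acted alike.

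The D6 control differs from D0 in both medium and days of culture, which cannot be told apart, and HOX probes went both ways between them. In the D6 control 12 HOX probes were higher and 7 lower than at D0 (limma), where 28.6% of all probes were called higher and 33.1% lower. With arrays scaled to their median instead of the 75th percentile the split was 10 higher and 9 lower. The HOX median was 0.080 and that of all probes -0.031. By cluster, 7 of 9 HOXA probes were higher and 0 lower, 2 of 10 HOXB probes were higher and 3 lower, 2 of 10 HOXC probes were higher and 2 lower, and 1 of 6 HOXD probes was higher and 2 lower. On the slide that held both groups, with 1 D6 control array, 9 were called higher and 5 lower, and the calls of HOXA3 probe A_73_P405181, HOXA5, HOXB4 probe A_73_114875, HOXC4 probe A_73_P297276, HOXC11 probe A_73_P090111 and both HOXD9 probes were lost. At least 2-fold, 4 were higher over all arrays, all in HOXA, and 2 were lower, both in HOXB, where 7.74% of all probes were called at least 2-fold higher and 6.24% at least 2-fold lower.

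HOXA4 had the largest increase, 1.22 ± 0.059 or 2.33-fold (adjusted p = 3.9e-08), and its D6 control and D0 arrays, listed above, lay apart. HOXA3 was higher by 1.07 ± 0.17 and 1.19 ± 0.18 with its 2 tested probes. HOXA9 was higher with both probes, and A_73_119831 read 2.04, 2.19 and 2.09 on the ATRA arrays, 2.06, 1.89 and 1.95 on the 9cRA arrays, 1.58, 1.43 and 1.63 on the D6 control arrays and 0.44, 0.41 and 0.42 on the D0 arrays. All 4 groups kept apart there apart from ATRA and 9cRA, and the D6 control exceeded D0 by 1.12 ± 0.068, 2.18-fold (adjusted p = 2.2e-07). HOXA10 was higher by 0.52 ± 0.050 and HOXA5 by 0.47 ± 0.087. HOXA2 and HOXA7 were not called (0.28 ± 0.15 and -0.17 ± 0.068, adjusted p = 0.14 and 0.051). HOXA7 read -1.96, -2.01 and -2.20 on the ATRA arrays, -2.06, -2.12 and -2.13 on the 9cRA arrays, -2.30, -2.43 and -2.38 on the D6 control arrays and -2.22, -2.15 and -2.22 on the D0 arrays. Its D6 control arrays lay a little below its D0 arrays without overlap.

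Genes of the other clusters were called in both directions. HOXB7 probe A_73_119630 read -4.04, -3.97 and -3.66 on the ATRA arrays, -3.87, -3.70 and -3.71 on the 9cRA arrays, -4.46, -4.46 and -4.49 on the D6 control arrays and -3.30, -3.38 and -3.61 on the D0 arrays. It was lower in the D6 control than at D0 (-1.04 ± 0.11, adjusted p = 1.2e-05), 2.06-fold, and stayed below D0 with ATRA (-0.46) and with 9cRA (-0.33). HOXC8 was also lower (-0.80 ± 0.19, adjusted p = 0.0035), as was HOXD9 with its 2 probes (-0.48 ± 0.10 and -0.93 ± 0.27). HOXC13 probe A_73_P042926 was 1.91-fold higher in the D6 control (0.93 ± 0.047, adjusted p = 5.2e-08), and the second HOXC13 probe, 6867 bases away, was not called (0.080 ± 0.11). HOXB3, the 3 HOXB4 probes and the 2 HOXC6 probes differed by between -0.25 and -0.023, and of them HOXB4 probe A_73_114875 was called (-0.25 ± 0.088, adjusted p = 0.031). That call was lost without D0 array 1 or 2 or D6 control array 2 or 3. HOXC4 probe A_73_P297276 was called higher (0.76 ± 0.29, adjusted p = 0.043), a call lost without any 1 of 10 of the 12 arrays (all but D6 control array 1 and D0 array 2), and on the shared slide its difference was -0.065. On that slide the other HOXC4 probe was lower in the D6 control, with a difference of -0.53, against 0.22 over all arrays. The slide held D6 control array 1 alone, where this probe read -5.68, against -4.50 and -4.60 on D6 control arrays 2 and 3. HOXC11 probe A_73_P090111 was called lower (-0.48 ± 0.18, adjusted p = 0.037), a call lost without D0 array 1 or 2 or D6 control array 1 or 3 (adjusted p of up to 0.14). HOXD4 probe A_73_P035246 was called higher (0.22 ± 0.070, adjusted p = 0.02), and this was lost without D0 array 2 or 3 or D6 control array 2.

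HOXB2 was the 1 gene with probes called in opposite directions. Probe A_73_P125736 was lower in the D6 control than at D0 by 2.16-fold (-1.11 ± 0.084, adjusted p = 1.1e-06). Probe A_73_P065616 read -4.38, -4.05 and -3.86 on the ATRA arrays, -3.84, -4.09 and -4.08 on the 9cRA arrays, -4.05, -4.48 and -4.49 on the D6 control arrays and -5.22, -4.67 and -5.16 on the D0 arrays, and was higher in the D6 control than at D0 (0.68 ± 0.18, adjusted p = 0.0083). Both calls were kept on the shared slide, at -1.02 and 0.97, and that of the second was lost with normexp background correction (0.25, adjusted p = 0.06). Which of the probes follows HOXB2 mRNA as a whole was not tested.

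**Figure D4:**
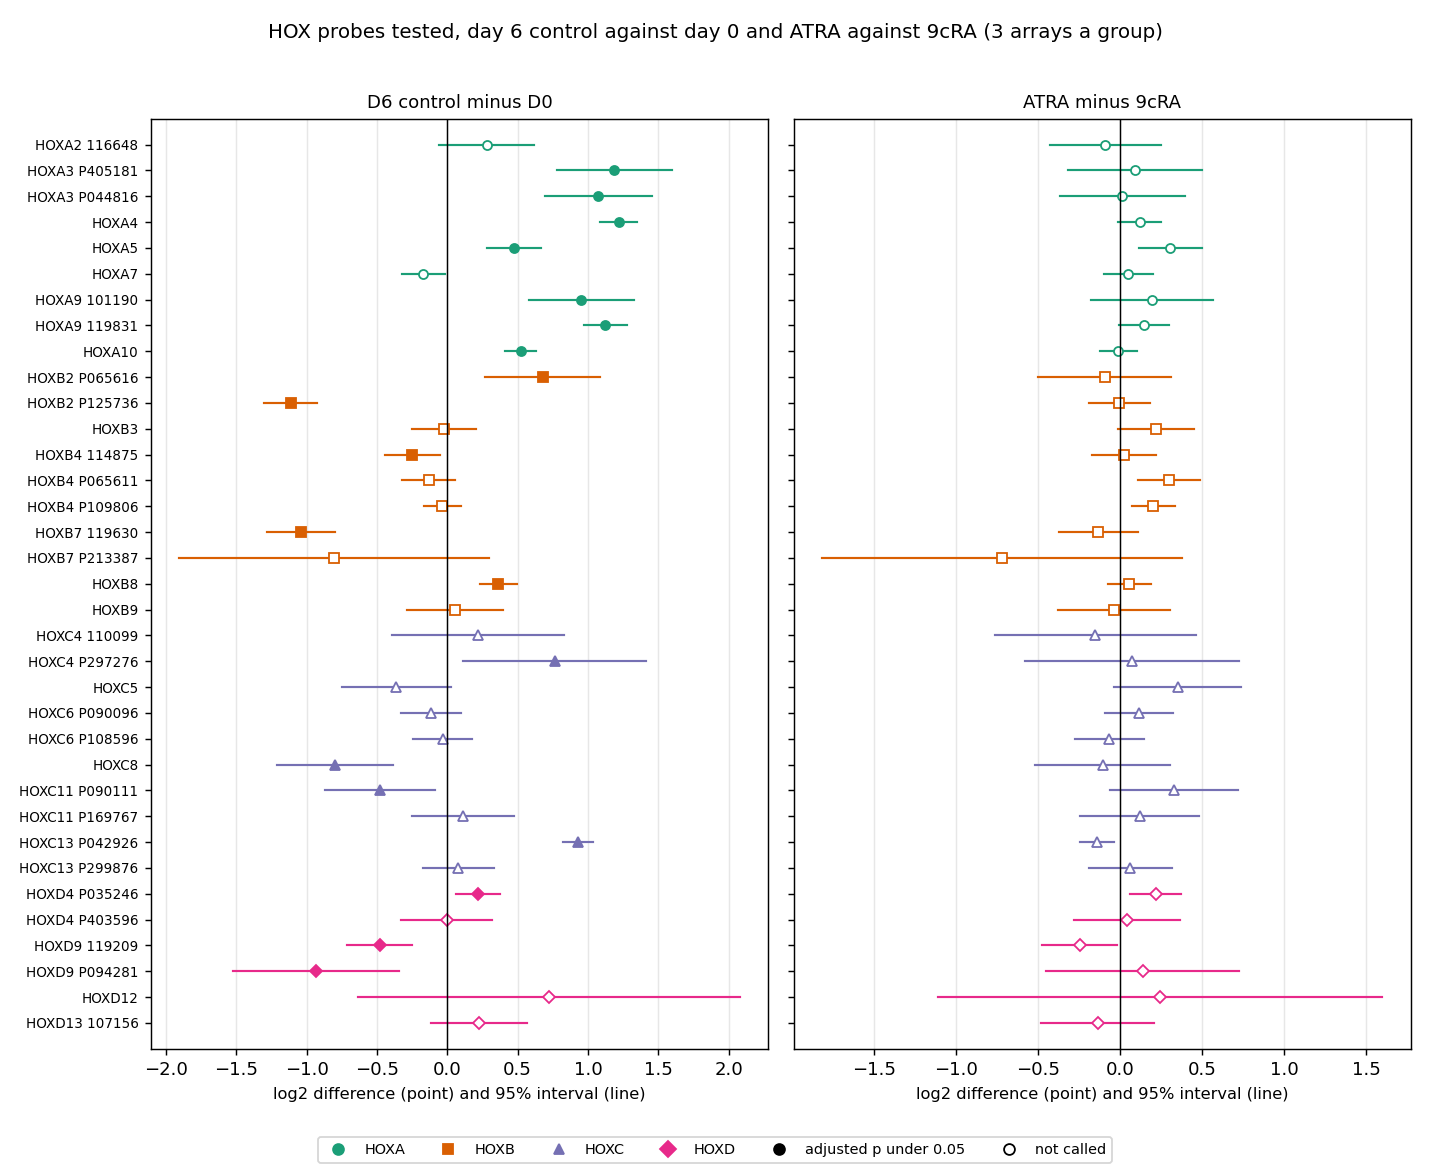
Difference of each of the 35 tested HOX probes for D6 control minus D0 (left) and ATRA minus 9cRA (right), in log2 units, with its 95% interval; filled points have an adjusted p under 0.05. On the left HOXA probes lie to the right of 0 except that of HOXA7, and the HOXB2 probes lie on either side; on the right no point is filled.

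Against D0, HOXA3 was higher by 2.42 ± 0.17 with ATRA, 5.34-fold, and by 2.41 ± 0.17 with 9cRA, 5.3-fold (probe A_73_P044816). Neither retinoid group shares a slide with D0, which only D6 control array 1 links to the other groups. Slide and group are therefore not separated in these differences. With slide as a block the HOXA3 differences were 2.04 with ATRA and 1.97 with 9cRA. In all, 26 HOX probes were higher and 3 lower with ATRA than at D0, where 35.5% and 34.9% of all probes were called. With 9cRA 24 were higher and 3 lower, where 35.7% and 34.1% were called. The lower ones were HOXB7 probe A_73_119630 and both HOXD9 probes, with either retinoid. With slide as a block 18 were higher and 1 lower with ATRA, and 17 were higher and 1 lower with 9cRA. In that fit HOXB7 kept its lower call (-0.56 with ATRA and -0.66 with 9cRA, limma adjusted p = 0.021 and 0.033) and neither HOXD9 probe did, of which A_73_119209 stood at 0.28 with 9cRA. Of the calls over all arrays, that of HOXD9 probe A_73_P094281 with ATRA was lost without D0 array 3 or any ATRA array, that of HOXB7 with 9cRA without D0 array 1 or 2 or 9cRA array 1, and that of HOXD9 probe A_73_119209 with 9cRA without D0 array 1 or 2 or 9cRA array 3 (adjusted p of up to 0.093). HOXC4 probe A_73_P297276, not well above background on any D0 array, was at least 3.33-fold higher with ATRA (adjusted p = 0.00016) and at least 3.17-fold higher with 9cRA (adjusted p = 0.00022). With slide as a block neither of these was called (limma, adjusted p = 0.079 and 0.46). This bound sets the retinoid mean against the lowest signal well above background on each D0 array, or the probe's own where higher. The adjusted p-values are those of the measured differences, not of the bound, and the probe entered the test through the retinoid groups. HOXB2 probe A_73_P125736 was 2.1-fold higher with ATRA and 2.11-fold higher with 9cRA than at D0, so that the retinoid cells exceeded both untreated groups.

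Genes with several probes were read by each probe. For 11 genes 2 or more probes were tested, in 13 pairs of probes. The pair had the same call in 7 of 13 cases with ATRA, 9 of 13 with 9cRA and 5 of 13 in culture, and opposite calls only in the culture comparison of HOXB2. The 4 probes labelled HOXC11 fall in 2 groups by position. Probe A_73_P090111 (chr5:26202200-26202259) carries an accession that RefSeq assigns to HOXC10, and A_73_P169767 (chr5:26202253-26202311) overlaps it. Both lie nearer to the HOXC10 probe A_73_107596 (chr5:26201581-26201640) than to the other 2 HOXC11 probes. They are counted here under their array name, HOXC11. Of these, A_73_P169767 was called higher with ATRA (0.87 ± 0.16) and with 9cRA (0.75 ± 0.16), whereas A_73_P090111 was not called with ATRA (0.47 ± 0.18) or with 9cRA (0.14 ± 0.18). Probe A_73_P169767 was well above background on all ATRA and 9cRA arrays, on 2 D6 control arrays and on 1 D0 array. It entered the test through the retinoid groups, so a higher level in them is in part built into its selection. The other 2 HOXC11 probes (chr5:26215808-26215867 and chr5:26216024-26216083) were too dim to test, so the array holds no tested probe that is HOXC11 by position beyond doubt. HOXB7 probe A_73_P213387 (chr19:38521103-38521162) is listed on the opposite strand to the other HOXB7 probe. It was well above background on all D0 arrays, on no D6 control array, on 2 9cRA arrays and on 1 ATRA array, and it was called in none of these comparisons.

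The 11 HOX probes that could not be tested were low in every group. HOXD10 had 2 such probes, of which A_73_110988 read -2.04, -5.70 and -5.65 on the ATRA arrays, with 1 array far above the other 2, -6.10, -5.49 and -6.02 on the 9cRA arrays, -6.54, -5.93 and -6.46 on the D6 control arrays and -6.48, -6.16 and -6.62 on the D0 arrays. HOXB1 read -6.58, -6.88 and -5.51 on the ATRA arrays, -5.68, -6.77 and -6.22 on the 9cRA arrays, -4.61, -5.83 and -6.65 on the D6 control arrays and -3.06, -6.37 and -6.22 on the D0 arrays, so that 1 D0 array stood apart.

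The partners and regulators of HOX proteins were read from lists of genes, each represented by its brightest probe. Their counts stand beside 21.9% of all probes called higher and 21.5% lower with ATRA, 22.7% and 20.8% with 9cRA, and 28.6% and 33.1% in culture, and nothing is called particular to a list from them. Of the HOX cofactors PBX, MEIS and PKNOX, homeodomain proteins that bind DNA together with HOX proteins, 5 of 7 tested were higher and 0 lower with ATRA, and the same counts held with 9cRA (median differences of 0.30 and 0.27). With ATRA, PKNOX1 differed from the D6 control by 0.47, PBX2 by 0.30 and MEIS2 by 0.19, and with 9cRA by 0.58, 0.27 and 0.23, all called. In culture 1 of these genes was higher and 2 were lower. PBX3 was lower (-1.38, adjusted p = 1.3e-08) and MEIS3 higher (1.05) in the D6 control than at D0.

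Of 20 tested regulators of HOX chromatin, 9 were higher with ATRA and 6 with 9cRA, and 0 were lower with either (median differences of 0.19 and 0.073, against 0.039 and 0.046 over all probes). PHC2 and PCGF2, subunits of Polycomb repressive complex 1, which silences HOX genes, were higher with ATRA by 1.47 and 0.61 and with 9cRA by 1.39 and 0.50. MEN1, a subunit of trithorax-type complexes that keep HOX genes active, was higher by 0.44 with ATRA and 0.46 with 9cRA. PHC1, of the same complex as PHC2, differed by 0.46 with ATRA (adjusted p = 0.00032) and 0.40 with 9cRA (adjusted p = 0.00094). In culture PCGF2, PHC1, RING1 and PHC2, all of that complex, were lower in the D6 control than at D0, with differences of -0.61, -0.89, -0.68 and -0.60, among 4 genes of the list that were higher and 7 that were lower.

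Retinoic acid receptors and control genes, the list that reads the retinoid signal itself, had 9 of 16 tested genes higher and 3 lower with ATRA and 10 higher and 3 lower with 9cRA (median differences of 1.02 and 1.11). The retinaldehyde reductase DHRS3 differed from the D6 control by 4.32 with ATRA and 4.22 with 9cRA, and STRA6, the receptor for retinol binding protein, by 5.27 and 4.90, with 1 of 3 D6 control arrays well above background for STRA6. CRABP1, which carries retinoic acid inside the cell, differed by 5.14 with ATRA and 5.14 with 9cRA. RARG was higher by 1.54 and 1.71. The differences of DHRS3, STRA6 and CRABP1 exceeded that of every HOX probe tested, with either retinoid.

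Of 29 tested homeobox genes outside the clusters, 15 were higher and 4 lower with ATRA and 16 higher and 4 lower with 9cRA, with medians of 0.24 and 0.33. Over all probes, 21.9% were called higher and 21.5% lower with ATRA, and 22.7% and 20.8% with 9cRA. EMX2 was higher by 1.23 with ATRA and 1.06 with 9cRA, and MEOX2, a mesoderm homeobox gene, was lower (-1.20 and -1.02). SATB1 and HOPX were higher with ATRA (1.91 and 1.54) and with 9cRA (2.01 and 1.76). Of the caudal and flanking homeobox genes, 3 of 4 tested were higher with each retinoid. Among them EVX2, whose probe shares a homeobox run with HOXB4, was higher by 1.31 with ATRA (adjusted p = 0.0003) and 0.94 with 9cRA (adjusted p = 0.0029).

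Summed levels of cell type markers differed between the same groups. The summed linear level of 8 adipocyte markers, relative to the 75th percentile, was 35.1 to 35.9 on ATRA arrays, 32.4 to 37.9 on 9cRA arrays, 99.0 to 118 on D6 control arrays and 30.2 to 33.9 on D0 arrays. Of the 6 adipocyte markers tested, FABP4 (-4.94 with ATRA and -4.64 with 9cRA) and CIDEC were lower than in the D6 control with each retinoid and 4, PPARG among them, were not called (medians of -0.0087 and 0.059). The sum of 4 smooth muscle markers was 13.7 to 14.4 with ATRA, 13.1 to 15.8 with 9cRA, 130 to 158 in the D6 control and 277 to 282 at D0, and all 3 tested were lower than in the D6 control with each retinoid. The sum of 7 skeletal myoblast markers was 19.4 to 19.8 with ATRA, 21.0 to 22.6 with 9cRA, 42.0 to 46.9 in the D6 control and at least 70.2 on every D0 array. Of its 4 tested members, DES was lower than in the D6 control with both retinoids (-1.31 and -1.14) and PAX3 with ATRA (-0.36), while against D0 each retinoid had 2 higher and 2 lower. The sum of 5 leukocyte markers, of which ITGAM and CD3E were above background on no array, was 4.01 to 4.23 with ATRA, 3.76 to 4.17 with 9cRA, 1.37 to 2.10 in the D6 control and 1.85 to 2.17 at D0, and all 3 tested were higher than in the D6 control with each retinoid. The sum of 5 endothelial markers, of which PECAM1 was above background on no array, was 0.458 to 0.543 with ATRA, 0.387 to 0.494 with 9cRA, 0.166 to 0.241 in the D6 control and 0.129 to 0.150 at D0, with 2 of 3 tested called higher than in the D6 control with ATRA and 1 with 9cRA. The part of these shifts in the HOX differences was not tested.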

How the data were processed

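Each array file holds spot intensity on a linear scale, per the file headers output of Feature Extraction 10.7.3.1 with background subtracted and no normalization between arrays. The processed signal was taken to log2, the array's 75th percentile subtracted and spots of a probe averaged. Control spots and 191 spots marked as outliers were left out, and 0 spots were saturated. The 12 arrays entered a single limma 3.58.1 fit in R 4.3.3 with a mean for each group (lmFit and eBayes, two-sided) for 31205 of 43653 probes, with Benjamini-Hochberg adjustment over these and a threshold of 0.05 in each of 6 comparisons. Positions are UMD3.1. The number of arrays limits the precision.

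The authors also deposited log2 values, 1 column per group. They are the group mean of the same quantity centred on each probe's median (median gap of 0.00255 to 0.00276, correlations of 0.935 for ATRA, 0.949 for 9cRA, 0.967 for the D6 control and 0.992 for D0, column medians of 0.01, 0.02, -0.01 and 0.01), and served as an alternative.

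The HOX genes and the other lists were chosen with earlier results of these data known. Every HOX gene is named. Values on every array are given for probes that differed at least 2-fold between ATRA, 9cRA and the D6 control or between the D6 control and D0, for genes whose probes went opposite ways and for some members that were not called. Of the other lists, up to 4 genes with the smallest adjusted p are named. A gene taken in this way is not reported here. The fit was tested on simulated data. Alternatives were normexp background correction, quantile or median scaling, other filters on dim probes, 1 probe per gene, slide or array number as a block, fits within a slide or over 2 groups, leaving out each array, a 2-fold rule and the authors' table.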

Additional observations from a re-analysis of the deposited data

How the results depend on the processing

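Counts of HOX probes called, in either direction, were 26 (ATRA against D6 control), 24 (9cRA against D6 control), 19 (D6 control against D0), 29 (ATRA against D0), 27 (9cRA against D0) and 0 (ATRA against 9cRA). With a 2-fold rule added they were 9, 6, 6, 13 and 15 for the first 5. With slide as a fixed block they were 13 for 9cRA against D6 control, 19 for ATRA against D0 and 18 for 9cRA against D0, and with 1 probe per gene 19 for ATRA and 17 for 9cRA against D0, where fewer probes are tested. Every other alternative kept each count within 1.5 times. Leaving out 1 array gave 23 to 27, 20 to 26, 16 to 21, 24 to 30, 24 to 27 and 0 to 0 in the order above. Of differences called in either fit, signs turned only with slide as a fixed block or within the shared slide. HOXC4 probe A_73_110099 read -0.53 for D6 control against D0 (fixed block and within the shared slide), -0.031 for 9cRA against D6 control, -0.38 for ATRA against D0 and -0.56 for 9cRA against D0. HOXC4 probe A_73_P297276 read -0.065 for D6 control against D0 in both slide fits. For 9cRA against D0, HOXD4 probe A_73_P403596 read -0.16, HOXD9 probe A_73_119209 0.28 and HOXD13 probe A_73_107156 -0.092 with slide as a fixed block. The cause was not tested. In both slide fits D0 meets the other groups only through D6 control array 1. With the array number as a replicate block the counts were 24, 23, 18, 29, 27 and 0. Same-numbered arrays deviated with correlations of -0.173 to 0.094, so the numbers do not pair the arrays. The authors' deposited table turned no sign of a called difference. Signal limits the reading of the 19 HOX probes not well above background on all arrays, of which 11 were not tested.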

Other observations

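The array also holds 7 probes that its descriptions or RefSeq assign to a HOX gene under another name. All 7 were tested, and 6 were higher than in the D6 control with ATRA and 6 with 9cRA (limma, adjusted p under 0.05), where 21.9% and 22.7% of all probes were called higher. Both probes described as HOXA6 were higher, by 0.97 (A_73_113978) and 1.04 (A_73_P110386) with ATRA and by 0.81 and 0.84 with 9cRA. The probe described as HOXA11 (A_73_120600) was higher by 0.22 with ATRA and 0.21 with 9cRA, that described as HOXB6 (A_73_107197) by 0.66 and 0.43, that of HOXC10 (A_73_107596) by 0.45 and 0.52, and a further HOXC6 probe (A_73_100258) by 0.48 and 0.46. HOXB13 (A_73_P065591) was not called, at -0.13 with ATRA and -0.0095 with 9cRA. In culture all HOXA6 and HOXA11 probes were higher in the D6 control than at D0, by 0.48 to 0.61, and HOXC10 was lower (-0.33).

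Genes that lie within 500 kb of the outermost HOX probes of a cluster had 99 probes, of which 81 were tested. Of these, 27 were higher and 15 lower with ATRA, where 21.9% of all probes were called higher and 21.5% lower. With 9cRA 30 were higher and 16 lower, where 22.7% and 20.8% of all probes were called. Their median differences were 0.14 with ATRA and 0.15 with 9cRA. NFE2, an erythroid transcription factor gene beside the HOXC cluster, was at least 1.62-fold higher with 9cRA than in the D6 control. The limma adjusted p of 8.3e-06 is that of the measured difference of 2.74, not of this bound. NFE2 was well above background on 1 of 3 ATRA arrays, on 3 of 3 9cRA arrays and on no D6 control or D0 array. It entered the test through the 9cRA group only, so a higher level there is in part built into its selection. In the D6 control 21 of these probes were higher and 33 lower than at D0, against 28.6% and 33.1% of all probes. CALCOCO1, also beside HOXC, had the largest increase with probe A_73_109980 (2.35), while its other probe, A_73_P254351, was lower (-0.29, limma adjusted p = 0.029).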
